A study of Hordeum vulgare with 6 samples.

Results

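H3K27me3 was mapped in barley (Hordeum vulgare) endosperm by ChIP-seq, the sequencing of DNA recovered by chromatin immunoprecipitation, and the regions described here are the narrower ones in the interstitial parts of the chromosomes. Peaks of the 3 replicate lists were merged where they overlapped or touched. A region was kept if all 3 lists had a peak in it, if its merged width was under 80 kb, and if its midpoint lay 10 to 30% or 70 to 90% along chromosomes 1H to 7H. Chromosome length was taken as the largest peak end on that chromosome in any list. This gave 863 regions, which is 26.7% of the 3237 chromosomal regions found in all 3 lists and 12.6% of all 6846 merged regions. They cover 15.7 Mb, or 9.86% of the length of those 3237 regions. The regions were chosen by presence in the lists, width and position, and the fold enrichments come from the same peak calling, so all values below are descriptions and none was tested.

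The samples were 3 H3K27me3 ChIP libraries from hand-dissected endosperm of the cultivar Morex at 16 days after pollination, all of the same genotype, tissue, stage and growth conditions, with no treatment. There were also 3 input libraries, which were not analysed here on their own. Sheared chromatin was pooled before the precipitation, and separate plants for the replicates are not stated, so the SD between replicates may be technical. Peak lists hold neither read counts nor expression values, so the depth is unknown and the tissue label could not be checked against marker genes.

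H3K27me3 is the trimethyl mark that Polycomb repressive complex 2 places on lysine 27 of histone H3, and it is typical of genes that are kept silent in a given tissue or stage. In cereal endosperm the mark is also known for its part in parent-of-origin-dependent expression. Barley chromosomes are large. Genes and crossovers are concentrated towards their ends, the centre is rich in repeats and recombines rarely, and the interstitial parts lie between those extremes. By convention the low coordinates of a barley chromosome are those of the short arm.

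Most of the interstitial regions were small and weakly enriched. Their median width was 11.8 kb, with quartiles at 8.67 and 21.9 kb and a range from 2.54 to 78.6 kb. The fold, which the authors' peak caller gave for each peak relative to its background, had medians over the 863 regions of 2.57, 2.49 and 2.63 in replicates 1 to 3, or 2.56 ± 0.068 (SD, n = 3). Where a replicate had several peaks in a region, the highest fold was used. Over these shared regions the replicates were close to each other in the centre of the distribution and at its top, where the highest fold was 15.5, 14.7 and 17.0. Among all peaks under 80 kb in these zones, shared or not, the medians were less close. They were 2.37, 2.04 and 2.05 over 1178, 1594 and 1711 peaks of replicates 1 to 3. As whole tissue was used, a low fold in all nuclei cannot be told apart from a high fold in a few of them.

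A fold of at least 3 in every replicate was reached by 199 of the 863 regions, or 23.1%, beside 32.3% of all chromosomal regions found in the 3 lists. A fold of at least 5 in every replicate was reached by 46, or 5.33%, beside 15.3%. A −log10 q of at least 5 in every replicate was reached by 243, or 28.2%, beside 38.4%. The set of all regions includes the wide domains, which the width limit leaves out here. Among other regions under 80 kb, a fold of at least 3 in every replicate was reached by 18.7% in the centre. At the low- and high-coordinate ends it was reached by 33.7% and 29.1%. In 489 interstitial regions, 56.7%, the fold was under 3 in every replicate, and in 175 the replicates lay on both sides of that value. These last counts were not made over all chromosomal regions.

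The replicates differed at the weak end. A fold below 2 occurred in 6 regions of replicate 1, against 183 and 149 of replicates 2 and 3. In spite of the similar median fold in these shared regions, replicate 1 had a median −log10 q of 2.85, against 5.15 and 5.91. A total of 145 regions passed a −log10 q of 5 in replicates 2 and 3 and not in replicate 1. The share that passed was 30.0%, 51.2% and 56.5% in replicates 1 to 3. Over all chromosomal regions found in the 3 lists it was 40.6%, 59.2% and 64.5%, so the low value of replicate 1 was not particular to the interstitial regions. The count of 145 and those of folds below 2 were not made over all regions. Replicate 1 was thus the list with the fewest low folds and the lowest significance. Its depth relative to the others is unknown, and the part of depth in this was not tested.

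The strongest interstitial regions stood well apart from the bulk. The highest mean rank of fold belonged to a region of 78.6 kb on 7H from 465838520 to 465917085, with folds of 15.5, 13.9 and 17.0 in replicates 1, 2 and 3, or 15.5 ± 1.57 (SD, n = 3). The second, of 52.6 kb on 6H from 489326108 to 489378753, had folds of 13.5, 14.7 and 14.7, or 14.3 ± 0.688 (SD, n = 3). The folds of these regions overlapped between replicates, so their order is not larger than the replicate spread, but every replicate of both exceeded every replicate of the third.

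The third was a region of 65.5 kb on 3H from 171264549 to 171330075, with folds of 11.2, 11.5 and 10.4. The fourth, of 59.3 kb on 7H from 498050334 to 498109589, had the closest replicates of the 10 strongest, with 10.5, 11.0 and 10.9, or 10.8 ± 0.242 (SD, n = 3). These 4 were the only regions of the 863 with a fold of at least 10 in every replicate.

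The fifth to seventh had mean folds of 10.8, 10.7 and 10.4. They lay on 3H from 84967300 to 85028443, with folds of 9.04, 11.4 and 11.8, on 5H from 468471444 to 468543683, with 9.41, 10.3 and 12.6, and on 7H from 541342115 to 541410040, with 9.34, 11.3 and 10.4. In all 3 of these regions replicate 1 was the lowest, and their replicate ranges overlapped. The last 3 of the 10 were 2 regions on 2H and 1 on 5H. On 2H, the region from 72468828 to 72530065 had folds of 9.64, 9.36 and 10.3, and the region from 185333416 to 185374340 had 9.16, 10.3 and 9.20. The region on 5H from 91183508 to 91220049 had 9.55, 8.39 and 8.97 and was the narrowest of the 10, at 36.5 kb.

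Each of these 10 regions was a single peak in each replicate, as were 94.4% of the 863. Between 89.7% and 98.0% of the merged width was covered in all 3 lists, against a median of 70.3% over the 863 regions. Their −log10 q ran from 48.8 to 240 over the replicates.

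**Figure D1:**
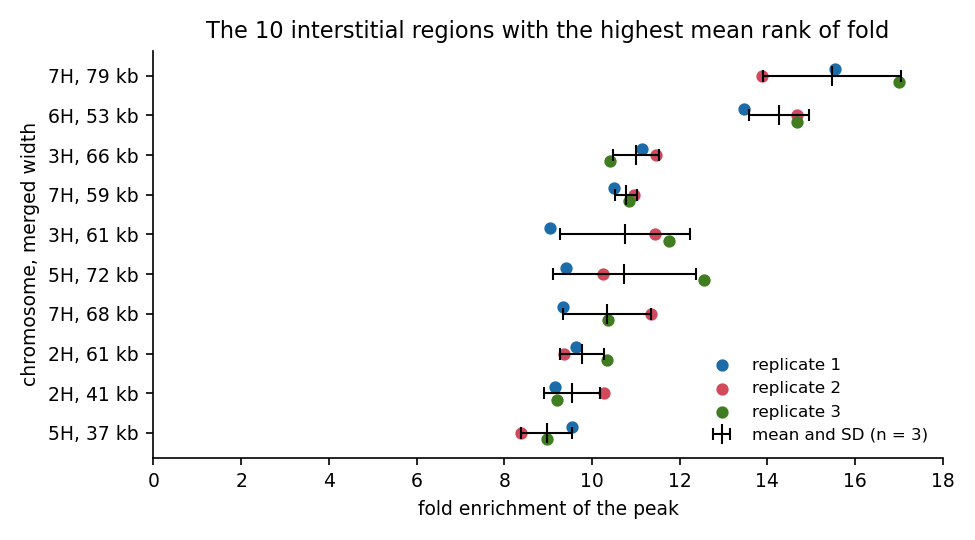
Fold of the peak (x axis, no unit) in each replicate for the 10 interstitial regions with the highest mean rank of fold, labelled by chromosome and merged width; points are replicates, bars the mean and SD (n = 3). The region of 7H at 15.5 ± 1.57 and that of 6H at 14.3 ± 0.688 lie to the right of the other 8, whose replicates span 8.39 to 12.6.

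Strong interstitial regions occurred on every chromosome, but not at the same level. The strongest region of 1H, from 412627434 to 412666936, had folds of 7.41, 9.18 and 10.5, and that of 4H, from 518774943 to 518799860, had 6.61, 5.44 and 5.93. No replicate of the 4H region reached the lowest replicate of the 1H region. A fold of at least 5 in every replicate was found in 12 of 160 regions on 5H (7.50%) and 11 of 133 on 2H (8.27%), against 3 of 113 on 3H (2.65%) and 3 of 87 on 4H (3.45%). The shares were 3.45% on 6H, 4.31% on 1H and 5.80% on 7H, beside 5.33% over all the interstitial regions. The 46 regions of this strength had a median width of 41.6 kb, and none was narrower than 23.8 kb.

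Width and median fold went together up to a point. The 295 regions of 5 to 10 kb had a median fold of 2.23 ± 0.0915, the 292 of 10 to 20 kb had 2.73 ± 0.144, and the 151 of 20 to 40 kb had 3.87 ± 0.207 (SD, n = 3 each). The median of the 89 regions of 40 to 80 kb did not continue this order, at 3.37 ± 0.0407 (SD, n = 3). Strong regions were not fewer there: a fold of at least 5 in every replicate was reached by 27 of these 89. In the 20 to 40 kb class it was reached by 19 of the 151. For a fold of at least 3 in every replicate the shares were 50.6% and 61.6%. In the 20 to 40 kb class the replicate medians were 3.79, 3.72 and 4.11, and in the 40 to 80 kb class 3.33, 3.41 and 3.36. These medians did not overlap, whereas the single regions of both classes overlapped widely in fold. Across the 863 regions, Spearman's rho of mean fold and width was 0.591, a description over regions that share the same 3 libraries.

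Not all chromosomes had this order. On 2H the 14 regions of 40 to 80 kb had a median fold of 6.50 ± 0.278 and the 22 regions of 20 to 40 kb had 3.27 ± 0.346 (SD, n = 3 each), the opposite of the pooled order. On 5H the difference had different signs in the replicates. The other 5 chromosomes had the higher median in the 20 to 40 kb class in every replicate. Their 40 to 80 kb classes were small, with 11 regions on 1H, 8 on 3H, 6 on 4H, 15 on 6H and 19 on 7H. With only peaks of a −log10 q of at least 5, or of a fold of at least 3, the pooled order turned, and the 40 to 80 kb class was higher by 1.47 and 1.67 in fold. When each replicate's own covered length set the class, replicates 1 to 3 gave differences of -0.00586, 0.337 and 0.872, with next to no difference in replicate 1.

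The 40 to 80 kb class held strong and weak regions, grouped here by a fold of 3 after their values were seen. In 45 of the 89, the fold was at least 3 in every replicate, with a median of 6.28 ± 0.431 (SD, n = 3). Of these, 43 were single peaks in each replicate, and a median of 89.7% of their width was covered in all 3 lists. In another 31, the fold was under 3 in every replicate, with a median of 2.20 ± 0.0454 (SD, n = 3). Only 10 of those 31 were single peaks in each replicate, and the median width covered in all 3 lists was 49.9%. The groups overlapped in this measure, which ran from 1.40% to 98.1% in the weak group and from 65.5% to 98.0% in the strong group. The weak regions were not narrower, with a median of 59.9 kb against 52.6 kb. The remaining 13 had replicates on both sides of a fold of 3.

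The 5 widest regions include strong and weak ones. The widest was also the strongest, the 7H region with a fold of 15.5. The second, of 78.2 kb on 2H from 92806338 to 92884576, had folds of 4.23, 4.34 and 5.26. The third, of 77.6 kb on 5H from 472145471 to 472223050, had 2.96, 2.19 and 2.92. It was a single peak in each replicate, and 83.2% of its width was covered in all 3 lists. The fourth, of 77.5 kb on 1H from 443668924 to 443746471, had 2.79, 4.50 and 3.86, lowest in replicate 1. The fifth, of 77.1 kb on 1H from 420681464 to 420758522, had 2.18, 1.87 and 1.87. Replicates 1 and 3 each had 2 peaks in it, and 1.40% of its width was covered in all 3 lists.

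**Figure D2:**
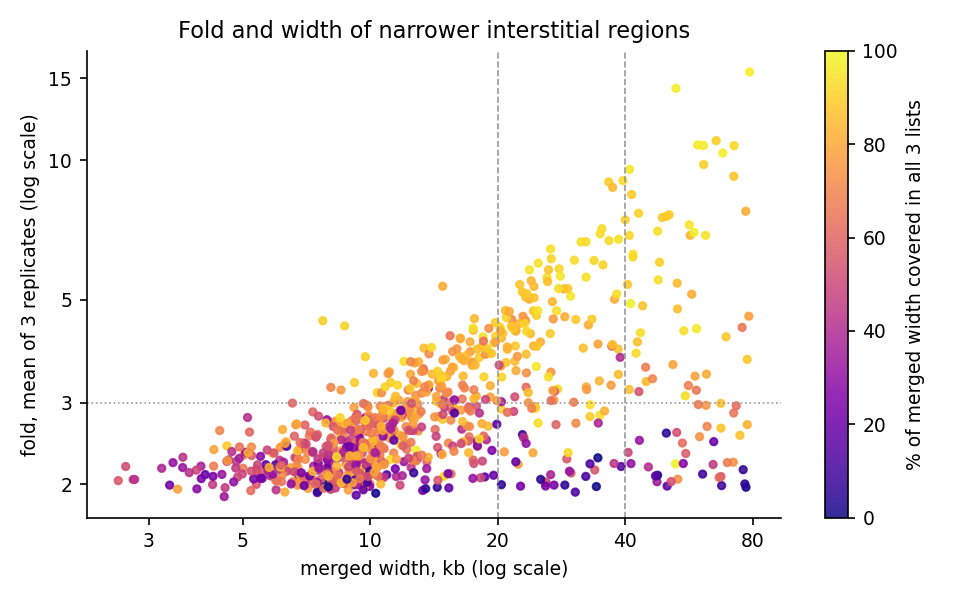
Merged width in kb (x axis, log scale) and fold as the mean of 3 replicates (y axis, log scale) of the 863 interstitial regions, coloured by the percentage of the merged width covered in all 3 lists; dashed lines mark 20 and 40 kb and the dotted line a fold of 3. From about 10 kb upwards the points part into a branch of high shared coverage that climbs to 15.5 and a row near a fold of 2. Shared coverage ran from 1.40% to 98.1% among the 31 regions of 40 to 80 kb with a fold under 3 in every replicate.

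At the other end of the width range, 36 regions were under 5 kb, with a median fold of 2.10 ± 0.168 (SD, n = 3) and none with a fold of at least 3 in any replicate. Among the 295 regions of 5 to 10 kb, 3 had a fold of at least 3 in every replicate; they are named here although chosen after their values were seen. They lay on 1H from 59981226 to 59990961 with folds of 3.98, 3.83 and 3.50, on 1H from 70606042 to 70613765 with 4.55, 4.69 and 4.27, and on 5H from 527578335 to 527587031 with 4.03, 4.72 and 4.42. In each, between 90.2% and 91.1% of the width was covered in all 3 lists, against a median of 60.9% for the class.

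The limit of 80 kb cut through a continuous range. The widest region inside had a fold of 15.5, and the narrowest regions just outside, of 80.2 kb on 7H, 80.8 kb on 5H and 80.8 kb on 7H, had folds of 13.2 ± 1.33, 3.12 ± 0.267 and 2.28 ± 0.108 (SD, n = 3 each). At the position limits, the last region inside 90% was a strong one, of 50.0 kb on 2H at 90.0% of the length with a fold of 7.56 ± 0.388, and the first outside, on 1H, had 2.13 ± 0.200 (SD, n = 3 each). At the limit of 30%, a region of 6H inside had 2.35 ± 0.0777 and one of 2H outside had 2.07 ± 0.175. At 70% the values were 2.47 ± 0.328 inside and 2.05 ± 0.280 outside, and at 10% they were 3.78 ± 1.04 inside and 1.98 ± 0.172 outside (SD, n = 3 each).

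The replicates differed in the extent they gave to a region. In 815 of the 863 regions (94.4%) each replicate had a single peak. Stretches covered in all 3 lists summed to 10.7 Mb of the 15.7 Mb. The shared part was at least 80% of the width in 276 regions and under 50% in 221. The outermost starts of the replicates differed by a median of 1.52 kb and the outermost ends by 1.68 kb, and in 91 regions both lay within 1 kb. Replicate 1 covered the least in 443 regions and replicate 3 the most in 403.

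Regions with more shared width were also stronger. The 99 regions with at least 90% of their width shared had a median fold of 4.38 ± 0.131, and the 77 with less than 25% shared had 2.03 ± 0.127 (SD, n = 3 each). Spearman's rho of fold between replicates, across the 863 regions, was 0.738 for replicates 1 and 2, 0.760 for 1 and 3, and 0.788 for 2 and 3.

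In 5 regions no base was covered in all 3 lists, although each list had a peak. The peaks were joined through a peak of another replicate that overlapped both. On 2H from 136004282 to 136038731, replicate 2 had a peak of 31.9 kb with a fold of 2.78, replicate 3 one of 6.97 kb with 1.87 and replicate 1 one of 23.9 kb with 2.20. The second such region, on 2H from 577877263 to 577911428, began 2.69 kb from a wide domain and had folds of 2.11, 2.06 and 1.77. The others lay on 1H from 53201404 to 53209177, on 1H from 438445135 to 438452788 and on 2H from 78175397 to 78185696.

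The last of these was also the region with the lowest mean rank of fold, at 2.11, 1.80 and 1.84. The next lowest were on 1H from 93743781 to 93751273, with 2.10, 1.86 and 1.80, and on 2H from 117257448 to 117287914, with 2.11, 1.86 and 1.81. In these 3 weakest regions replicate 1 had the highest fold, and −log10 q was between 1.18 and 1.46 in every replicate.

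The median coefficient of variation of fold between replicates was 10.4%, and the 5 largest values ran from 32.7% to 38.7%. On 6H from 456854736 to 456909706 the folds were 4.28, 5.95 and 2.63. The next, on 3H from 185234589 to 185270303, had 2.63, 3.98 and 2.03. In both, replicate 2 was the highest and replicate 3 the lowest. On 6H from 77769161 to 77812575 replicate 1 stood out, with 5.90 against 3.50 and 3.33. It did so again on 3H from 552240813 to 552258368, with 4.25 against 2.47 and 2.46. On 7H from 568207711 to 568226208 replicate 1 was instead the lowest, with 2.58 against 4.48 and 5.15.

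The regions were spread over both sides and all chromosomes. The low-coordinate side held 421 and the high-coordinate side 442, or 0.502 and 0.527 per Mb. The median fold was 2.56 ± 0.0547 on the low-coordinate side and 2.56 ± 0.0820 on the high-coordinate side, and the median widths were 11.8 kb on both. The sides thus differed by less than the replicate spread in fold.

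Chromosomes differed more than sides. The density was highest on 5H, with 160 regions or 0.680 per Mb, and lowest on 4H, with 87 regions or 0.356 per Mb. The zones of 5H had 1.23% of their length inside the regions and those of 4H 0.582%. Between the sides of a chromosome, 6H had 72 regions on the low-coordinate side and 44 on the high-coordinate side, while 3H had 44 and 69. The median fold was lowest on 2H, at 2.42 ± 0.109, and highest on 5H, at 2.68 ± 0.0781 (SD, n = 3 each). In each replicate 2H was below 5H, although 2H had the largest share of regions with a fold of at least 5.

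Density was higher in the outer than in the inner part of the zones. The median fold, averaged over the replicates, had no common order on the 2 sides. From 10 to 15% of the length there were 0.643 regions per Mb, from 15 to 20% there were 0.520, from 20 to 25% 0.405 and from 25 to 30% 0.438. The high-coordinate side mirrored this, with 0.639 from 85 to 90%, 0.581 from 80 to 85%, 0.462 from 75 to 80% and 0.424 from 70 to 75%. The outer parts of the zones, 10 to 20% of the chromosome length from the nearer end, held 500 regions and the inner parts, 20 to 30% from it, held 363. The outer part had more in 12 of 14 chromosome sides. The exceptions were the high-coordinate side of 2H, with 31 and 35, and the low-coordinate side of 3H, with 21 and 23.

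The median fold was 2.56 ± 0.0693 in the outer and 2.58 ± 0.0738 in the inner part (SD, n = 3 each), a difference smaller than the spread. In the mean over replicates the sides went opposite ways. The low-coordinate side had 2.52 ± 0.0563 outside and 2.59 ± 0.0792 inside, and the high-coordinate side 2.57 ± 0.0835 outside and 2.52 ± 0.0873 inside (SD, n = 3 each). On the low-coordinate side replicate 1 had the reverse order, with 2.57 outside and 2.54 inside, while replicates 2 and 3 were higher inside. On the high-coordinate side the outer part was the higher in each replicate. The step from 85 to 90% had 2.73 ± 0.137 and that from 80 to 85% had 2.44 ± 0.128 (SD, n = 3 each), again higher outside in each replicate. Peaks under 80 kb, counted in each list without merging, gave 1.04 ± 0.187 per Mb at 10 to 15% from the nearer end and 0.780 ± 0.178 at 25 to 30% (SD, n = 3 each). These values overlap between replicates, and replicate 1 had the fewest peaks in every step. Within each replicate the outer value was the higher, at 0.822 against 0.577, 1.14 against 0.856 and 1.15 against 0.908.

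**Figure D3:**
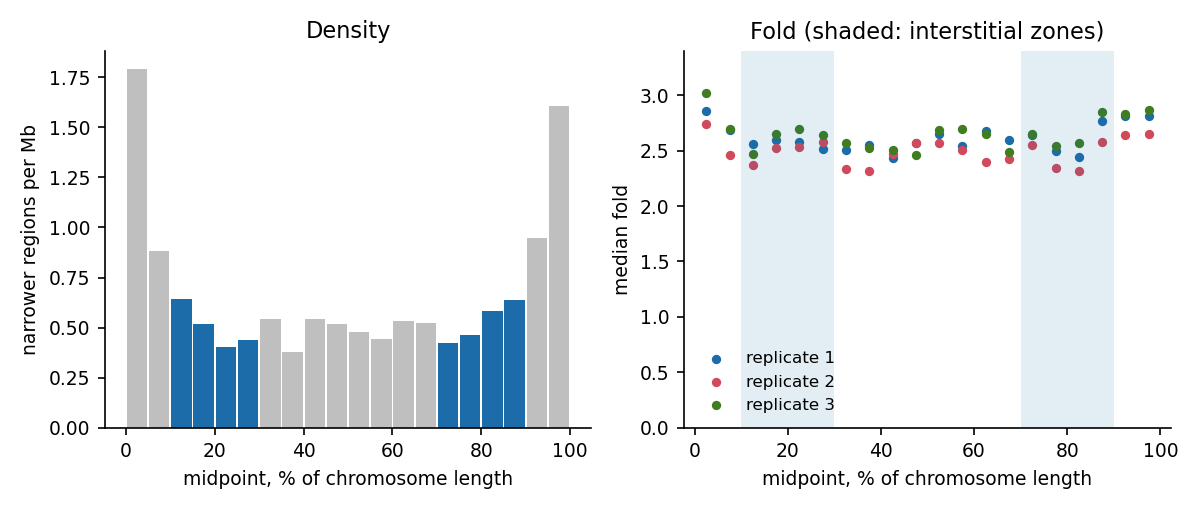
Left, narrower regions per Mb in steps of 5% of chromosome length over all 7 chromosomes (x axis, percentage of chromosome length), with the interstitial zones in blue and other parts in grey. Right, the median fold of the same regions in each replicate, with the interstitial zones shaded; from 10 to 30% the density goes from 0.643 to 0.405 and then 0.438 per Mb, and over both zones the replicate medians of fold lie between 2.31 and 2.84.

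The nearest other region found in all 3 lists lay at a median of 503 kb, against 539 kb for narrower regions of the centre and 162 and 170 kb for those of the ends. A neighbour within 100 kb was found for 154 regions (17.8%) and within 1000 kb for 592 (68.6%). The nearest domain of 80 kb or more lay at a median of 5028 kb, and 31 regions (3.59%) were within 100 kb of such a domain. Those 31 had a median fold of 2.35 ± 0.113, and the other 832 had 2.58 ± 0.0736 (SD, n = 3 each). The first group was lower in every replicate. The most isolated region, on 6H from 432122572 to 432138375, had no neighbour within 6.13 Mb and folds of 2.11, 3.70 and 2.74.

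Short runs were present. With gaps of up to 20 kb allowed, 43 regions formed 20 runs, of which 18 were pairs. Of these runs, 5 spanned more than 80 kb in all. The run with the most regions lay on 1H from 93743781 to 93813452. It had 4 regions with gaps of 12.3, 5.80 and 6.71 kb and mean folds from 1.92 to 2.76. The run with the longest span, 121 kb, was a pair on 5H from 88615828 to 88737164 with mean folds of 4.33 and 5.43.

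In windows of 1 Mb, 478 of the 863 regions (55.4%) had no other in their window. The fullest window was on 5H from 511000001 to 512000000, with 5 regions. They included 1 of 47.8 kb with folds of 5.88, 5.59 and 5.09 and 1 of 53.1 kb with folds of 4.27, 5.10 and 4.97. The remaining 3 had mean folds from 2.06 to 2.51. Another 6 windows held 4 regions each. In order of position the first was the window of the 1H run. The next was on 2H from 481000001 to 482000000, where a region of 61.9 kb with folds of 7.45, 6.47 and 6.74 lay beside 3 regions with mean folds of 2.15 to 3.15.

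Set beside the other regions under 80 kb, the interstitial ones were closer in density, median width and median fold to those of the chromosome centre than to those of the ends. Their density of 0.514 per Mb compared with 0.495 in the central 30 to 70% of the length, 1.34 in the first 10% and 1.28 in the last 10%. Their median width of 11.8 kb was the same as in the centre, against 15.1 and 14.4 kb at the ends. The median fold of 2.56 ± 0.068 compared with 2.52 ± 0.0803 in the centre, 2.79 ± 0.109 at the low-coordinate end and 2.77 ± 0.108 at the high-coordinate end (SD, n = 3 each).

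Taken replicate by replicate, the interstitial fold was below both ends in each of the 3, by 0.226 ± 0.0416 and 0.205 ± 0.0472, and above the centre by 0.0396 ± 0.0273 (SD of the differences, n = 3). The difference from the centre changed sign with narrower zones and with only peaks of a fold of at least 3. The same 3 libraries gave both sides of these differences, and the measure comes from the peak calling that chose the regions, so they are given without a test.

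The interstitial parts and the ends also differed in the fold of the regions of 40 to 80 kb. In the interstitial parts their median fold was 3.37 ± 0.0407, as in the centre with 3.27 ± 0.0574. At the low-coordinate end it was 5.50 ± 0.114 and at the high-coordinate end 5.37 ± 0.126 (SD, n = 3 each). The replicates of the ends did not overlap with those of the interstitial parts. In the 20 to 40 kb class the interstitial median of 3.87 ± 0.207 lay beside 3.92 ± 0.0698 and 3.54 ± 0.186 at the ends and 3.35 ± 0.143 in the centre. The share of 40 to 80 kb regions with a fold of at least 3 in every replicate was 50.6% in the interstitial parts, 46.9% in the centre, and 74.6% and 69.4% at the low- and high-coordinate ends.

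**Figure D4:**
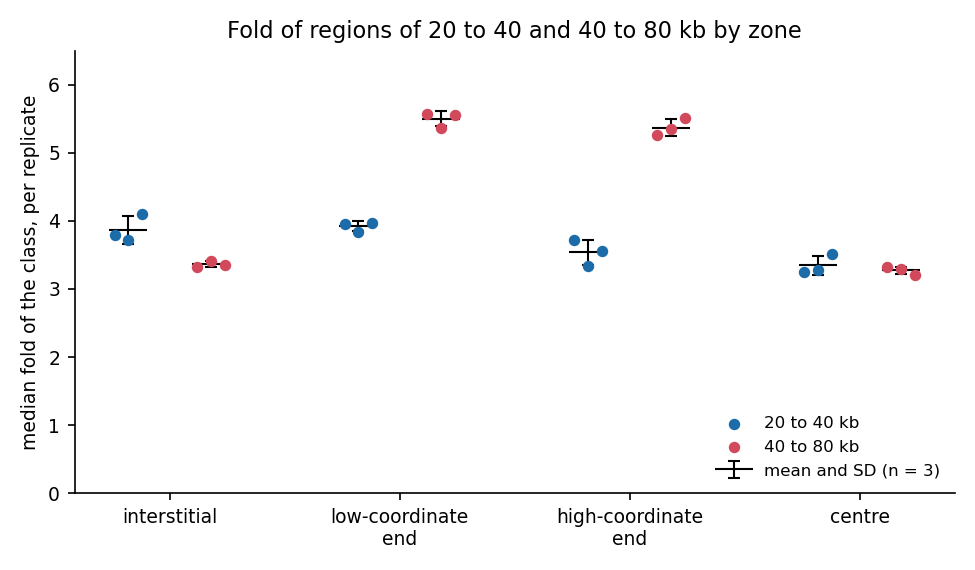
Median fold (y axis, no unit) of regions of 20 to 40 kb (blue) and 40 to 80 kb (red) in the interstitial parts, at both chromosome ends and in the centre; points are replicates and bars the mean and SD (n = 3). The wider class lies above the narrower one at both ends (5.50 and 5.37 against 3.92 and 3.54), below it in the interstitial parts (3.37 against 3.87) and level with it in the centre. The interstitial order turned with only peaks of a −log10 q of at least 5 or of a fold of at least 3.

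Around the 863 regions lay others that the lists did not share. Of the 2039 merged regions under 80 kb in these zones, 42.3% had a peak in all 3 lists. That share was 48.7% over all merged regions on the chromosomes, which include the wide domains. Among regions under 80 kb it was 39.4% in the centre and 54.1% and 53.5% at the ends. A further 410 had a peak in 2 lists, of which 299 lacked replicate 1, and 766 had a peak in 1 list, of which 81 were in replicate 1. These were narrower, with medians of 7.85 and 4.22 kb. Domains of 80 kb or more in the same zones numbered 112 and covered 29.4 Mb, so the narrower regions made up 34.8% of the length that both classes held there, against 44.6% in the centre, 28.1% at the low-coordinate end and 36.7% at the high-coordinate end. On this measure the interstitial parts lay between the ends.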

How the data were processed

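One peak list was deposited per ChIP library, so peaks had been called on each replicate and not on pooled reads. Per the submitters' processing notes the tools were bcl2fastq, HISAT2 2.1.0, GATK, MACS2 and deepTools, named without role or order. The genome build, the settings and the use of the input libraries are not given in the sources used here. The authors' deposited fold (a ratio, the seventh column) was read as ChIP signal over the peak caller's background, which is an assumption. The deposited −log10 p and −log10 q were taken as they stand, and the deposited score was not used. The highest q of any listed peak was 0.0970. The peak names in the list of the library labelled replicate 3 carry the number 4, and the labels were followed. The lists give no reads, so no counting interval was computed.

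Starts were taken as 0-based, and positions are printed 1-based. Lists were merged and summarised with pandas 2.3.3, numpy 2.4.6 and scipy 1.17.1 under Python 3.11.15, and merging was tested on simulated lists. The simulated regions lay apart, with a single peak per list and small edge shifts. Split peaks and peaks joined only through another replicate were therefore not tried. The members, measures and width classes were chosen with earlier results of these data known. The regions named are the 10 whose folds ranked highest by mean percentile over the replicates, the strongest of each chromosome, the 5 widest, the 5 with the largest coefficient of variation, the 3 of lowest rank and the 3 fullest windows of 1 Mb, with ties broken by chromosome and start. Runs, the 2 kinds of wide regions and the 3 strong narrow regions were chosen after their values were seen. No gene names or sequences are given, because the build of the positions is not named; a RefSeq gene table of MorexV3 was not used.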

Additional observations from a re-analysis of the deposited data

How the results depend on the processing

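In all, 20 results were recomputed under 14 settings, giving 223 values. Of these, 159 stayed within the replicate spread, the 95% Wilson interval of a share or 1.5 times a count. The Wilson intervals treat regions as independent, although all regions share the same libraries. For merged width, the spread used was the SD of the median covered length per replicate. The settings for the share in the outer part of the zones and for the width classes were chosen after seeing the data. Restricting the lists to a −log10 q of 5 or more left 243 regions (117 on the low- and 126 on the high-coordinate side), with a median fold of 4.05, a median width of 23.1 kb, and 79.4% at a fold of at least 3. The fold differences of the interstitial regions from the low end, the high end and the centre were then -0.548, -0.281 and 0.157, and the 20 to 40 kb class minus the 40 to 80 kb class was -1.47. Restricting them to a fold of 3 or more left 199 regions (96 and 103), with a median fold of 4.36, a median width of 24.3 kb and 97.0% at a −log10 q of at least 5; the same differences were -0.760, -0.643, -0.0766 and -1.67. Both settings remove weak regions by construction. Zones of 15 to 25% and 75 to 85% are shorter, so fewer regions fall in them by construction. They held 413 regions (194 and 219), with a mean rho of fold between replicates of 0.733. The fold differences were -0.272 from the low end, -0.00667 from the centre and 0.933 between the width classes. The cause of these changes in rho and fold was not tested. Regions in at least 2 lists numbered 635 on the low-coordinate side, with a median fold of 2.33, a median width of 10.0 kb and a difference of 0.00910 from the centre. A width limit of 60 kb gave -0.145 from the low end, and 100 kb gave -0.268. Without the regions on 2H the width classes differed by 0.751.

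Leaving out 1 replicate gave 918 to 1172 regions, 452 to 578 on the low-coordinate side and 466 to 594 on the high-coordinate side. The median fold was then 2.30 to 2.51, the median width 10.1 to 10.7 kb, the share at a fold of at least 3 between 18.9% and 24.3%, and that at a −log10 q of at least 5 between 27.1% and 33.7%. The highest number of regions came without replicate 1. Shares fixed by a setting itself, and width classes cut by another width limit, were not recomputed. No paired analysis was possible because no result here comes from a test between groups that share replicate numbers; differences within a replicate are given as values. The depth of the lists is unknown, and its part in the weak regions was not tested.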
